A study of Arabidopsis thaliana with 15 samples.

Results

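The genes for the proteins of the small (40S) subunit of the cytosolic ribosome were followed through 6 groups of Arabidopsis thaliana shoot apex arrays. A list of 60 loci for 27 proteins defined the set. Of these, 35 genes for 19 proteins had a probe set, the group of oligonucleotides that reads 1 transcript, assigned to that gene alone, and each of the 35 had exactly 1. Another 11 listed genes shared their probe set with a further gene, among them genes of S3, S16, S17, S20 and S23, and 14 were not named in the probe table, so these 25 are not described. The 35 genes stand among 13350 genes with a probe set of their own and 22810 probe sets in all. The probe table gives locus numbers, and the protein of each locus was taken from the published naming of Arabidopsis ribosomal proteins.

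The cytosolic ribosome reads messenger RNA with its small subunit, which holds the decoding centre, and joins amino acids in its large subunit. In plants each ribosomal protein is encoded by several genes, here called paralogues, whose products are nearly alike. In Arabidopsis, mutations in single ribosomal protein genes are known to change leaf shape, embryo growth or meristem activity, and demand for new ribosomes is high in growing tissue such as the shoot apex. In structures of yeast and mammalian ribosomes the small subunit has a head and a body with its platform. Of the 35 genes, 12 encode proteins of the head and 23 encode proteins of the body or platform.

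Total RNA came from 24-day-old plants. The cells named CLV3p, FILp and CLV3n had 3 arrays each and those named WUSp had 2, and the series' design text adds that the CLV3p cell type is missing from CLV3n. The names Protoplast Induced and Uninduced (2 arrays each) are taken to mean apex material put through enzymatic release of protoplasts and material not put through it. The labels give no genotype, reporter line or sorting gate. Nothing in them shows that replicates are independent sorts or plants, so p-values measure only the spread between these samples.

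CLV3, the gene of the stem cell peptide, had signals of 569 to 1220 in CLV3p, 58.0 and 76.1 in WUSp, 1.83 to 6.02 in FILp and 6.73 to 12.2 in CLV3n. WUS and FIL had no probe set of their own, so that WUSp could not be checked against its defining gene. Of the 4 lateral organ genes measured, YAB3 and YAB5, relatives of FIL, had 361 to 443 and 429 to 490 in FILp, against 130 to 220 and 120 to 170 in CLV3n, PTL had 301 to 390 in FILp and 254 to 353 in CLV3n, and LAS had 75.6 to 87.8 in FILp and 166 to 216 in CLV3n. In FILp against CLV3n none of the 4 was called higher, and LAS was called lower (-1.16, adjusted p = 0.0353, limma). The hybridisation control bioC divided the arrays into a low batch (354 to 445, all FILp arrays with CLV3p 3 and CLV3n 3) and a high batch (862 to 1409, the other 10). The WUSp arrays stood apart from the 9 other sorted arrays in several controls. Their ubiquitin 3'/5' ratios were 0.74 and 1.04 on the log2 scale, against 1.30 to 2.41, their 25S ribosomal RNA signals were 18406 and 18502.5, against 23685 to 36195, and their poly-A spikes averaged 6.95 and 6.98 (log2), against 7.33 to 8.70. The 3 photosynthesis markers PRK, LHCB4.1 and RCA summed to 1296 to 1804 in CLV3p, 5551 to 5952 in WUSp, 3259 to 5261 in FILp and 3625 to 4422 in CLV3n. The part of these controls and markers in the results on WUSp was not tested.

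By their median the small-subunit genes were bright in all 6 groups and lowest, among the sorted cells, in WUSp. Some were dimmer, such as AT5G59240, AT5G39850, AT1G23410 and AT5G15520, with geometric mean signals of 369, 726, 741 and 999 over all arrays. The median log2 signal of the 35 genes averaged 12.67 ± 0.11 in CLV3p, 12.49 ± 0.07 in WUSp, 12.82 ± 0.09 in FILp and 12.94 ± 0.04 in CLV3n (SD, n = 3, 2, 3 and 3). It was 12.36 ± 0.08 in Protoplast Induced and 12.35 ± 0.02 in Uninduced (SD, n = 2 each). Together the 35 genes made up 1.82% ± 0.05 of the summed signal in CLV3p, 1.41% ± 0.07 in WUSp, 1.88% ± 0.09 in FILp and 2.0% ± 0.05 in CLV3n. The arrays of CLV3p, FILp and CLV3n ran from 1.77% to 2.07%, and both WUSp arrays lay below them at 1.36% and 1.46%. Protoplast Induced had 1.34% ± 0.02 and Uninduced 1.37% ± 0.01 (SD, n = 2 each). Only Uninduced overlapped WUSp, and both lay below every array of CLV3p, FILp and CLV3n. In these bulk samples fewer cells of a type and less RNA per cell cannot be told apart, and a share of the signal also moves with all other transcripts.

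**Figure D1:**
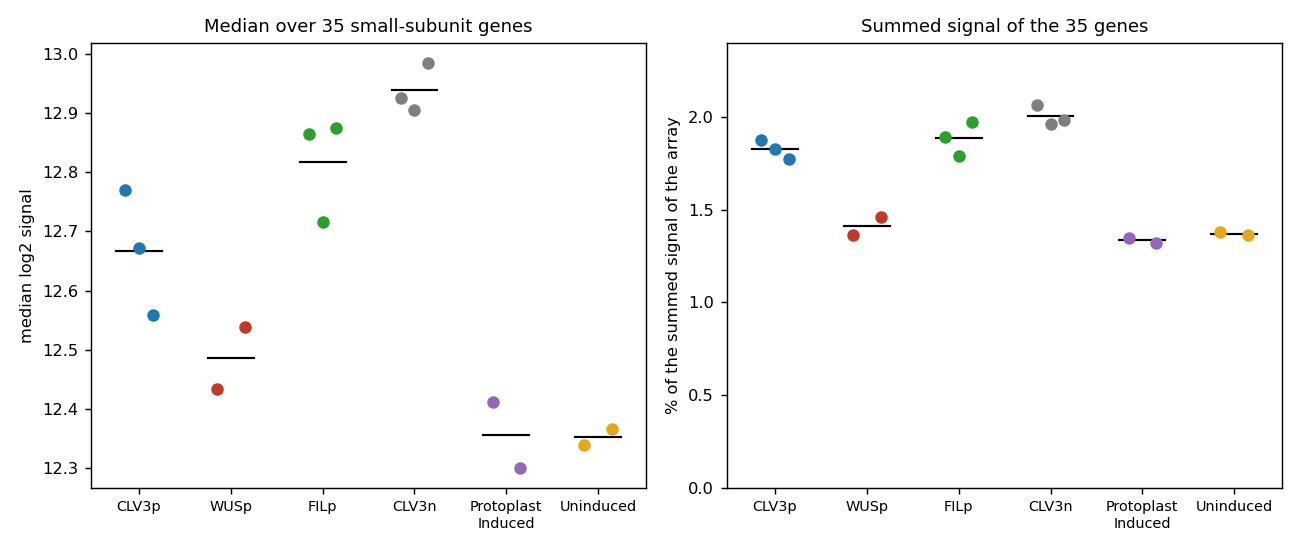
Median log2 signal of the 35 small-subunit genes (left) and their summed signal as a percent of the array's summed signal (right), 1 point per array, with the group mean as a bar. In both panels the WUSp arrays lie below all arrays of CLV3p, FILp and CLV3n, and so do those of Protoplast Induced and Uninduced.

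Gene by gene, both WUSp arrays lay below all 9 other sorted arrays for 23 of the 35 genes, which is 65.7%, while 10.8% of all tested probe sets had that order. The lowest population mean was in WUSp for 30 of the 35, against 32.7% of all probe sets, and for none of the 35 was the highest mean there, against 27.9%. The 4 arrays of Protoplast Induced and Uninduced lay below the 9 arrays of CLV3p, FILp and CLV3n for 20 of the 35, against 9.45% of all probe sets. Those 4 arrays also had lower maximum signals, 20367 to 21650 against 29139 to 36634.5. Their 25S ribosomal RNA signals were 7181 to 8580, against 23685 to 36195. No share was computed for bright probe sets alone, and the part of these array differences in that order was not tested. A moderated F test (limma, Benjamini-Hochberg over 15052 probe sets) found a difference between the 4 sorted populations for 22 of the 35 genes, where 34.3% of all probe sets passed. The smallest p-values belonged to AT5G52650 (S10), AT1G23410 (S27a), AT5G59240 (S8) and AT3G11510 (S14), with F values of 18.4, 13.4, 11.5 and 11.3 and adjusted p-values of 0.000336, 0.0018, 0.00262 and 0.00284. The count of 22 fell to 7 without WUSp 1 and to 10 without WUSp 2, to 14 with arrays centred on their medians and to 12 with plain eBayes. The share of all probe sets passing under those settings was not computed.

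WUSp was compared with each other population to find what sets these cells apart. These comparisons share the WUSp arrays, so they are not independent of each other. Against CLV3n, 21 of the 35 genes were lower in WUSp and none was higher, where 10.8% of all probe sets were called lower and 8.33% higher. The median log2 difference of the 35 was -0.60, and that of all probe sets was -0.04. Against FILp, 19 were lower in WUSp and none was higher, where 7.69% and 7.28% of all probe sets were called, and the median was -0.53 against -0.03. In CLV3p against WUSp, 19 were higher in CLV3p and none was lower, where 11.7% and 12.4% of all probe sets were called, and the median was 0.50 against 0.04.

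Those counts rested on the pair of WUSp arrays, while the medians moved little, and calls of single genes given after this share that dependence. Without WUSp 1 the calls numbered 7 against CLV3n, 2 against FILp and 1 in CLV3p against WUSp, and without WUSp 2 they numbered 13, 6 and 6. In CLV3p against WUSp they numbered 10 without CLV3p 1 and 12 without CLV3p 2, and in WUSp against FILp they numbered 6 without FILp 1 and 6 without FILp 3. Leaving out each array in turn kept the medians between -0.67 and -0.57 for WUSp against CLV3n, between -0.60 and -0.48 for WUSp against FILp, and between 0.46 and 0.58 for CLV3p against WUSp. Within the high bioC batch alone the medians were -0.61 for WUSp against CLV3n, with 15 genes lower, and 0.52 for CLV3p against WUSp, with 12 higher. No batch holds both WUSp and FILp, and a fit with the batch as a block gave a median of -0.59 with 15 genes lower in WUSp, 8 of the 19 calls being lost and 4 others gained. With plain eBayes, 7 genes were called in CLV3p against WUSp and 6 in WUSp against FILp, and quantile normalization left 13 calls against CLV3n and 11 against FILp. For none of these settings was the share of all probe sets called computed. Whether the drop in calls is particular to these genes was therefore not tested.

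Bright probe sets as a whole were lower in WUSp. Among the 562 probe sets with a mean log2 signal over 12, a level chosen after the values were seen, the median was -0.29 for WUSp against CLV3n and 30.1% were lower, and the 23 small-subunit genes among them had a median of -0.60 with 15 lower. For WUSp against FILp the bright probe sets had a median of -0.25 with 19.4% lower, and the 23 genes had -0.50 with 13 lower. For CLV3p against WUSp they had 0.21 with 22.8% higher, and the 23 genes had 0.49 with 13 higher. The 12 genes below that level were not closer to 0, with medians of -0.64 against CLV3n, -0.68 against FILp and 0.63 in CLV3p against WUSp, and 6 called in each comparison. No median or share was computed for all probe sets at the level of these 12, and the part of brightness in the results was not tested.

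**Figure D2:**
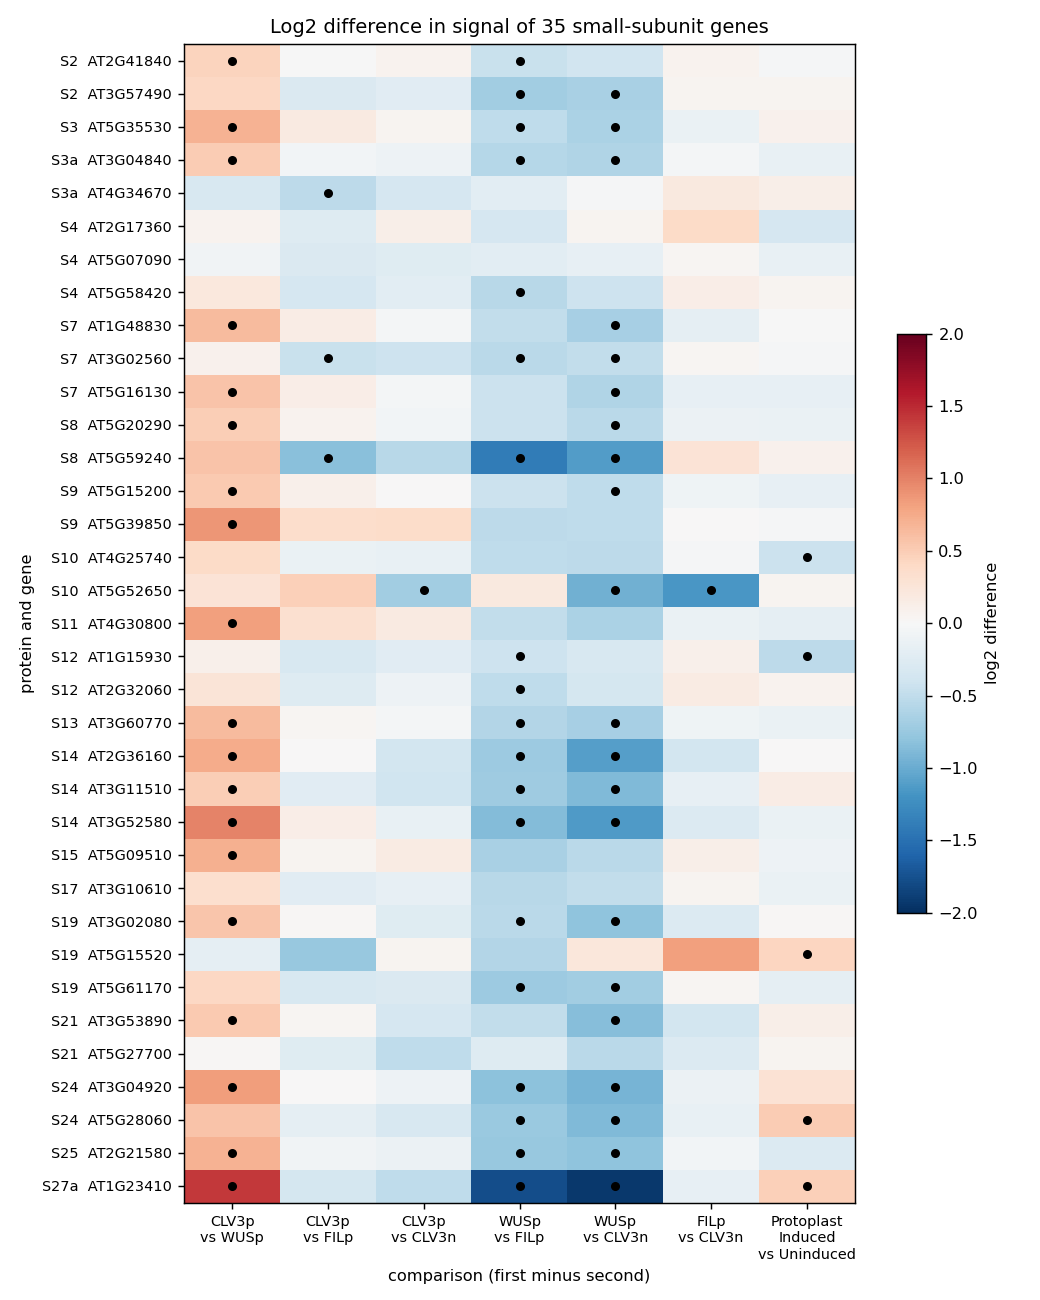
Log2 difference in signal for each of the 35 small-subunit genes, labelled by protein and locus (vertical), in 7 comparisons (horizontal, first group minus second), with a dot where the adjusted p was under 0.05 (limma). The dots lie mainly in the columns that hold WUSp, where genes are blue when WUSp comes first and red when CLV3p comes before it.

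Among the head proteins, S27a had the largest differences between WUSp and the other populations. S27a is made as a fusion with ubiquitin that is later cleaved. Its gene AT1G23410 had signals of 944, 740 and 685 in CLV3p, 279 and 307 in WUSp, 1125, 844 and 1040 in FILp, and 1036, 1972 and 674 in CLV3n. Both WUSp arrays were below the other 9, and the CLV3n arrays spanned the widest range. The log2 difference was -1.93 ± 0.33 for WUSp against CLV3n (SE; adjusted p = 0.00125), -1.77 ± 0.33 for WUSp against FILp (adjusted p = 0.002) and 1.42 ± 0.33 for CLV3p against WUSp (adjusted p = 0.00636), all by limma. In CLV3p against WUSp it missed the threshold without WUSp 1 (1.35, adjusted p = 0.0614), and within the high batch it was 1.51 (adjusted p = 0.00398).

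The S3 gene AT5G35530, whose protein lines the channel where messenger RNA enters, had 14092, 20005 and 16052 in CLV3p, 10056 and 10470 in WUSp, 14592, 14149 and 14950 in FILp, and 16162, 14201 and 17714 in CLV3n. The WUSp arrays did not overlap any other population. The log2 differences were -0.64 ± 0.16 for WUSp against CLV3n, -0.50 ± 0.16 for WUSp against FILp and 0.69 ± 0.16 for CLV3p against WUSp (SE; adjusted p = 0.012, 0.0429 and 0.0055, limma), and the call against FILp was lost with the bioC batch as a block (-0.42, adjusted p = 0.213). The S25 gene AT2G21580 had the same calls, with -0.81 ± 0.22 for WUSp against CLV3n, -0.76 ± 0.22 for WUSp against FILp and 0.69 ± 0.22 for CLV3p against WUSp, but with the batch as a block its difference from FILp was -0.27 (adjusted p = 0.5). The S15 gene AT5G09510, whose protein sits in the head near the decoding site, was higher in CLV3p than in WUSp by 0.71 ± 0.22 and was not called in the other comparisons. The S17 gene AT3G10610 was called in no comparison, with -0.49 for WUSp against CLV3n, -0.56 for WUSp against FILp and 0.34 for CLV3p against WUSp, while the batch as a block called it lower in WUSp than in CLV3n (-0.58, adjusted p = 0.025) and than in FILp (-0.83, adjusted p = 0.0296).

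S12, a protein of the beak of the head, was called only in WUSp against FILp among the sorted comparisons. Its genes AT1G15930 and AT2G32060 had log2 differences of -0.42 ± 0.13 and -0.51 ± 0.15 there (SE; adjusted p = 0.0422 and 0.0272, limma). Both calls were lost with the bioC batch as a block, at -0.39 each (adjusted p = 0.17 and 0.208). Of the S19 genes, whose protein is needed in yeast and mammals to mature the small-subunit RNA, AT3G02080 and AT5G61170 were lower in WUSp than in CLV3n, by -0.80 ± 0.16 and -0.69 ± 0.15, and lower than in FILp, by -0.53 ± 0.16 and -0.73 ± 0.15. AT3G02080 was also higher in CLV3p than in WUSp, by 0.56 ± 0.16, and AT5G61170 was called there only with the batch as a block (0.47, adjusted p = 0.0271). The remaining S19 gene, AT5G15520, had 573, 704 and 1200 in CLV3p, 769 and 1020 in WUSp, 1342, 1308 and 1346 in FILp, and 506, 739 and 1160 in CLV3n. Its WUSp arrays lay inside the ranges of CLV3p and CLV3n, and no sorted comparison was called. The high signals of 1200 and 1160 belonged to CLV3p 3 and CLV3n 3, which share the low bioC batch with FILp. With the batch as a block FILp against CLV3n moved from 0.82 to 0.20 (adjusted p = 0.755, limma). WUSp against FILp was then 0.33 (adjusted p = 0.448), although both WUSp signals lay below those of FILp.

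Among the body and platform proteins, S14 was lower in WUSp through all 3 of its genes. S14 forms part of the platform, close to the path of the messenger RNA. AT3G52580 had 9188, 7475 and 5108 in CLV3p, 3643 and 3424 in WUSp, 7092, 5147 and 7393 in FILp, and 9149, 6774 and 7608 in CLV3n. Its log2 differences were -1.14 ± 0.23 for WUSp against CLV3n, -0.87 ± 0.23 for WUSp against FILp and 1.0 ± 0.23 for CLV3p against WUSp (SE; adjusted p = 0.00338, 0.0171 and 0.00549, limma). AT2G36160 had 13859, 9862 and 8901 in CLV3p, 5919 and 6890 in WUSp, 10860, 9844 and 11096 in FILp, and 17394, 12706 and 11657 in CLV3n. AT3G11510 had 7006, 6525 and 5582 in CLV3p, 4470 and 4578 in WUSp, 8002, 6728 and 7507 in FILp, and 9503, 7755 and 7823 in CLV3n. For each of these 3 genes both WUSp arrays were below every other sorted array. AT2G36160 and AT3G11510 differed by -1.10 ± 0.20 and -0.88 ± 0.16 in WUSp against CLV3n, by -0.73 ± 0.20 and -0.71 ± 0.16 in WUSp against FILp, and by 0.74 ± 0.20 and 0.49 ± 0.16 in CLV3p against WUSp, all called. In WUSp against FILp the call of AT3G52580 was lost without either WUSp array, without FILp 1 and without FILp 3, where the difference ran from -0.92 to -0.77.

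**Figure D3:**
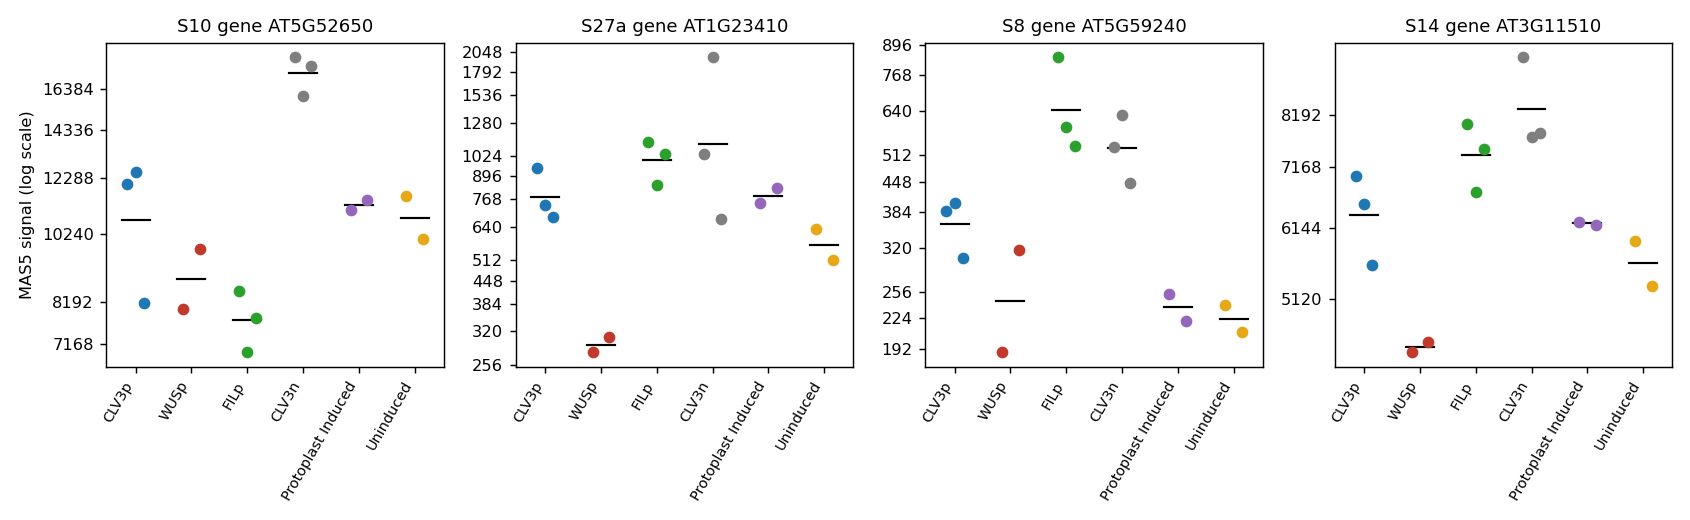
Signal (log axis) of the 4 small-subunit genes with the smallest F test p-values over the sorted populations, 1 point per array, with the geometric mean of each group as a bar. The WUSp mean is the lowest among the sorted cells for the S27a, S8 and S14 genes, while the S10 gene AT5G52650 is highest in CLV3n and lowest in FILp.

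S24, whose human counterpart is needed for small-subunit assembly, and S13 followed the same direction. The S24 gene AT3G04920 had 2142, 2828 and 1827 in CLV3p, 1211 and 1286 in WUSp, 2117, 2010 and 2521 in FILp, and 2419, 2783 and 2006 in CLV3n. Its log2 differences were -0.93 ± 0.20 for WUSp against CLV3n, -0.82 ± 0.20 for WUSp against FILp and 0.84 ± 0.20 for CLV3p against WUSp (SE; adjusted p = 0.00566, 0.0122 and 0.00778, limma). Its call in CLV3p against WUSp was lost without WUSp 1 (0.79, adjusted p = 0.0757), and that in WUSp against FILp without either WUSp array or FILp 3. The other S24 gene, AT5G28060, was lower in WUSp than in CLV3n (-0.89 ± 0.22) and than in FILp (-0.74 ± 0.22), and its 0.56 ± 0.22 in CLV3p against WUSp was called only with the bioC batch as a block (0.72, adjusted p = 0.0109). The S13 gene AT3G60770 was lower in WUSp in both, by -0.67 ± 0.16 and -0.59 ± 0.16, and 0.63 ± 0.16 higher in CLV3p than in WUSp.

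S7 and S9 were called mostly against CLV3n and CLV3p. All 3 S7 genes were lower in WUSp than in CLV3n: AT1G48830 by -0.67 ± 0.19, AT3G02560 by -0.50 ± 0.15 and AT5G16130 by -0.60 ± 0.19. AT1G48830 and AT5G16130 were higher in CLV3p than in WUSp, by 0.64 ± 0.19 and 0.56 ± 0.19, while AT3G02560 had 0.08 there and was instead called in WUSp against FILp (-0.53 ± 0.15). With the batch as a block that call was lost (-0.46, adjusted p = 0.167), and AT1G48830 was called in WUSp against FILp (-0.91, adjusted p = 0.0085). S9 lies by the messenger RNA entry channel. Its gene AT5G15200 was lower in WUSp than in CLV3n (-0.51 ± 0.15) and higher in CLV3p than in WUSp (0.52 ± 0.15). Its other gene, AT5G39850, had 740, 949 and 644 in CLV3p, 439 and 400 in WUSp, 604, 709 and 503 in FILp, and 536, 976 and 400 in CLV3n, so that WUSp and CLV3n met at the low end. It was called in CLV3p against WUSp (0.88 ± 0.30, adjusted p = 0.0461, limma), a call lost without either WUSp array and without CLV3p 1 or CLV3p 2. In WUSp against FILp it had -0.52, and -1.14 with the batch as a block (adjusted p = 0.0377).

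S8, a body protein, was called through both of its genes, with the larger differences in AT5G59240. Its gene AT5G59240 had 387, 403 and 305 in CLV3p, 189 and 316 in WUSp, 841, 593 and 536 in FILp, and 535, 629 and 446 in CLV3n. FILp and CLV3n overlapped each other and lay above every CLV3p and WUSp array, and the pair of WUSp arrays differed widely. WUSp was lower than CLV3n by -1.12 ± 0.26 and lower than FILp by -1.40 ± 0.26 (SE; adjusted p = 0.00819 and 0.00168, limma), and both calls were lost without WUSp 1 (-0.75 and -1.03, adjusted p = 0.157 and 0.0586). Its 0.57 in CLV3p against WUSp was called only with the batch as a block (0.69, adjusted p = 0.0487). The other S8 gene, AT5G20290, had 29983, 23552 and 26772 in CLV3p, 18125 and 19709 in WUSp, 23996, 24125 and 28642 in FILp, and 29782, 23095 and 30534 in CLV3n. It was lower in WUSp than in CLV3n (-0.55 ± 0.16) and higher in CLV3p than in WUSp (0.50 ± 0.16), and its -0.43 against FILp was not called.

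S2, S4, S11 and S21 are other proteins of the body and platform. The S2 genes, for a protein of the entry channel, were both lower in WUSp than in FILp (AT2G41840 by -0.45 ± 0.13 and AT3G57490 by -0.70 ± 0.20), calls that the bioC batch as a block lost (adjusted p = 0.0967 and 0.142). AT3G57490 was also lower than in CLV3n (-0.64 ± 0.20), and AT2G41840 was higher in CLV3p than in WUSp (0.44 ± 0.13). Of the 3 S4 genes, AT5G58420 was lower in WUSp than in FILp (-0.56 ± 0.16, and -0.39 with the batch as a block, adjusted p = 0.249), and AT2G17360 and AT5G07090 were called in no comparison. The S11 gene AT4G30800 was higher in CLV3p than in WUSp (0.81 ± 0.24), with 4447, 3368 and 3075 in CLV3p against 1888 and 2204 in WUSp, and with the batch as a block it was also lower in WUSp than in CLV3n (-0.81, adjusted p = 0.00829) and than in FILp (-1.01, adjusted p = 0.0188). Of the S21 genes, AT3G53890 was lower in WUSp than in CLV3n (-0.85 ± 0.17) and higher in CLV3p than in WUSp (0.52 ± 0.17), and AT5G27700 was called in no comparison without the block. With the batch as a block AT5G27700 was lower in CLV3p than in CLV3n (-0.51, adjusted p = 0.0403, limma). Within the low batch that difference was -1.06, from CLV3p 3 and CLV3n 3 alone, so no p-value is given. Within the high batch it was -0.23 (adjusted p = 0.55).

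The S10 gene AT5G52650 had a pattern of its own among the 35. S10 is a head protein near the entry of the messenger RNA in yeast and mammalian ribosomes. The gene had 12063, 12517 and 8167 in CLV3p, 8026 and 9759 in WUSp, 8491, 6978 and 7800 in FILp, and 18184, 16037 and 17675 in CLV3n. All CLV3n arrays lay above all 8 other sorted arrays, and the other populations overlapped. Its log2 difference was -0.69 ± 0.16 in CLV3p against CLV3n, -1.16 ± 0.16 in FILp against CLV3n and -0.96 ± 0.18 in WUSp against CLV3n (SE; adjusted p = 0.0102, 0.000717 and 0.00233, limma). These comparisons share the CLV3n arrays. The low batch holds only CLV3p 3 and CLV3n 3 of their populations, so no p-values are given for it. There FILp against CLV3n was -1.19 and CLV3p against CLV3n was -1.11. Within the high batch WUSp against CLV3n was -0.95 (adjusted p = 0.0065, limma) and CLV3p against CLV3n was -0.47 (adjusted p = 0.166). CLV3p against CLV3n also missed the threshold without CLV3p 3 (-0.49, adjusted p = 0.0504). Protoplast Induced had 11072 and 11436 and Uninduced had 11571 and 10071, between CLV3n and FILp.

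Between the populations other than WUSp few of the genes were called. In CLV3p against CLV3n, 1 of 35 was lower (AT5G52650) and none was higher, where 8.95% of all probe sets were lower and 4.88% higher, and the median was -0.15 against 0.02 for all probe sets. That count was 0 without CLV3p 3, 3 without CLV3n 1, and 2 without CLV3n 3, CLV3p 1 or CLV3p 2. With the bioC batch as a block it was 3, with AT3G02560 and AT5G27700 added. Some same-numbered CLV3p and CLV3n arrays were alike, as given under the processing, and the main fit did not pair them. In FILp against CLV3n, 1 of 35 was lower (again AT5G52650), where 2.56% of all probe sets were lower and 1.73% higher, and the median was -0.05 against -0.01, with 2 calls without CLV3n 3. With arrays centred on their medians the median of the 35 was 0.02 in CLV3p against CLV3n, and that of all probe sets moved to 0.19. Centring also moved the median of all probe sets from -0.04 to 0.11 in WUSp against CLV3n, and that of the 35 to -0.46.

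In CLV3p against FILp, 3 of 35 were lower and none was higher, where 12.2% of all probe sets were lower and 10.5% higher (1 of 35 higher and 2 lower with arrays centred on their medians), and the median was -0.07 against 0.03. The S3a gene AT4G34670, for a platform protein near the exit of the messenger RNA, had 9222, 8391 and 10300 in CLV3p and 13168, 12901 and 14148 in FILp, a log2 difference of -0.53 ± 0.12 (SE; adjusted p = 0.00528, limma). The S7 gene AT3G02560 had 6556, 7397 and 6232 in CLV3p and 9088, 8812 and 9631 in FILp, a difference of -0.45 ± 0.14 (adjusted p = 0.0282). The S8 gene AT5G59240 had -0.83 ± 0.23 (adjusted p = 0.0173). In all 3 the CLV3p and FILp arrays did not overlap. Within the low bioC batch, where CLV3p 3 is the only CLV3p array, the differences were -0.38 for AT4G34670 and -1.08 for AT5G59240. Without FILp 1 the count was 1. The call of AT5G59240 was lost without CLV3p 3 (adjusted p = 0.062) or FILp 1 (adjusted p = 0.094), and that of AT3G02560 with the bioC batch as a block (-0.40, adjusted p = 0.112), with arrays centred on their medians (adjusted p = 0.0797) and without CLV3p 1, CLV3p 3 or any 1 FILp array (adjusted p = 0.0567 to 0.0974).

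Protoplast Induced was compared with Uninduced to see which transcripts differ after preparation of the cells. Of the 35 genes 3 were higher and 2 lower in Protoplast Induced, 14.3% in all, where 21.9% of all 13911 probe sets were called (10.5% higher, 11.4% lower). With arrays centred on their medians 1 was higher and 2 were lower. The medians were -0.02 for the 35 and 0.00 for all probe sets. The S12 gene AT1G15930 had 7841 and 8119 in Protoplast Induced and 11609 and 11355 in Uninduced, a log2 difference of -0.52 ± 0.08 (SE; adjusted p = 0.000673, limma). Its arrays did not overlap, and the call held under all 13 settings run. The S10 gene AT4G25740 had 2050 and 2005 in Protoplast Induced and 2825 and 2650 in Uninduced, a difference of -0.43 ± 0.11 (adjusted p = 0.0149), a call lost without either Protoplast Induced array (adjusted p = 0.0916 and 0.115).

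The genes that rose encode S24, S27a and S19. AT5G28060 had 2063 and 1811 in Protoplast Induced and 1334 and 1379 in Uninduced, a difference of 0.51 ± 0.12 (adjusted p = 0.0112, limma). AT1G23410 had 748 and 831 in Protoplast Induced and 630 and 514 in Uninduced (0.47 ± 0.15, adjusted p = 0.0421). AT5G15520 had 1527 and 1404 in Protoplast Induced and 1122 and 1053 in Uninduced (0.43 ± 0.12, adjusted p = 0.0272). Of 13 settings run, AT5G28060 was called in 10, and AT1G23410 and AT5G15520 in 6 each, both being lost with arrays centred on their medians. None of these genes overlapped between the groups, but 19 of the 35 genes did not overlap either, with 5 called. The share of all probe sets without overlap was not computed. With 2 arrays a group the count of calls was 1 without Protoplast Induced 1, 2 without Protoplast Induced 2 and 9 without Uninduced 1, and it was 1 with plain eBayes.

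A ratio of 2 paralogues on the same array does not depend on how the array was scaled, and it shows whether genes of 1 protein changed unequally. For 12 proteins with more than 1 measured gene, 20 pairs were tested over the 4 sorted populations with an exact permutation test of F (92400 assignments, Benjamini-Hochberg over the 20 pairs), whose smallest possible p is 6.5e-05. The pair for S3a, AT3G04840 over AT4G34670, passed (F = 21.1, exact p = 6.5e-05, adjusted p = 0.0013). Its log2 ratios were 0.59, 0.87 and 0.47 in CLV3p, -0.21 and -0.15 in WUSp, 0.25, 0.17 and 0.11 in FILp, and 0.36, 0.42 and 0.43 in CLV3n. No 2 populations overlapped, and the means were 0.64 in CLV3p, -0.18 in WUSp, 0.17 in FILp and 0.41 in CLV3n. The call was lost with the replicate number as a block, although replicate numbers were not taken as pairs. Leaving out each array in turn gave adjusted p-values from 0.00317 to 0.0214, and the bioC batch as a block gave adjusted p = 0.0444.

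The S3a genes themselves differed between different populations. AT3G04840 had 13927, 15338 and 14244 in CLV3p, 10298 and 10150 in WUSp, 15613, 14473 and 15265 in FILp, and 15268, 15411 and 15834 in CLV3n, so that only the WUSp arrays stood below the rest. It was lower in WUSp than in CLV3n by -0.60 ± 0.13, lower than in FILp by -0.56 ± 0.13, and 0.50 ± 0.13 higher in CLV3p than in WUSp (SE; adjusted p = 0.00462, 0.00673 and 0.00969, limma). AT4G34670 had 9222, 8391 and 10300 in CLV3p, 11887 and 11248 in WUSp, 13168, 12901 and 14148 in FILp, and 11875, 11482 and 11764 in CLV3n. Its lowest arrays were those of CLV3p, its WUSp arrays lay beside those of CLV3n (-0.02 ± 0.14, adjusted p = 0.943), and CLV3p against WUSp was -0.32 ± 0.14 (adjusted p = 0.107). In Protoplast Induced the log2 ratio was -0.31 and -0.29 and in Uninduced 0.05 and -0.10. Whether transcripts of either gene bind the other's probes was not tested, since the probe sequences were not used here.

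**Figure D4:**
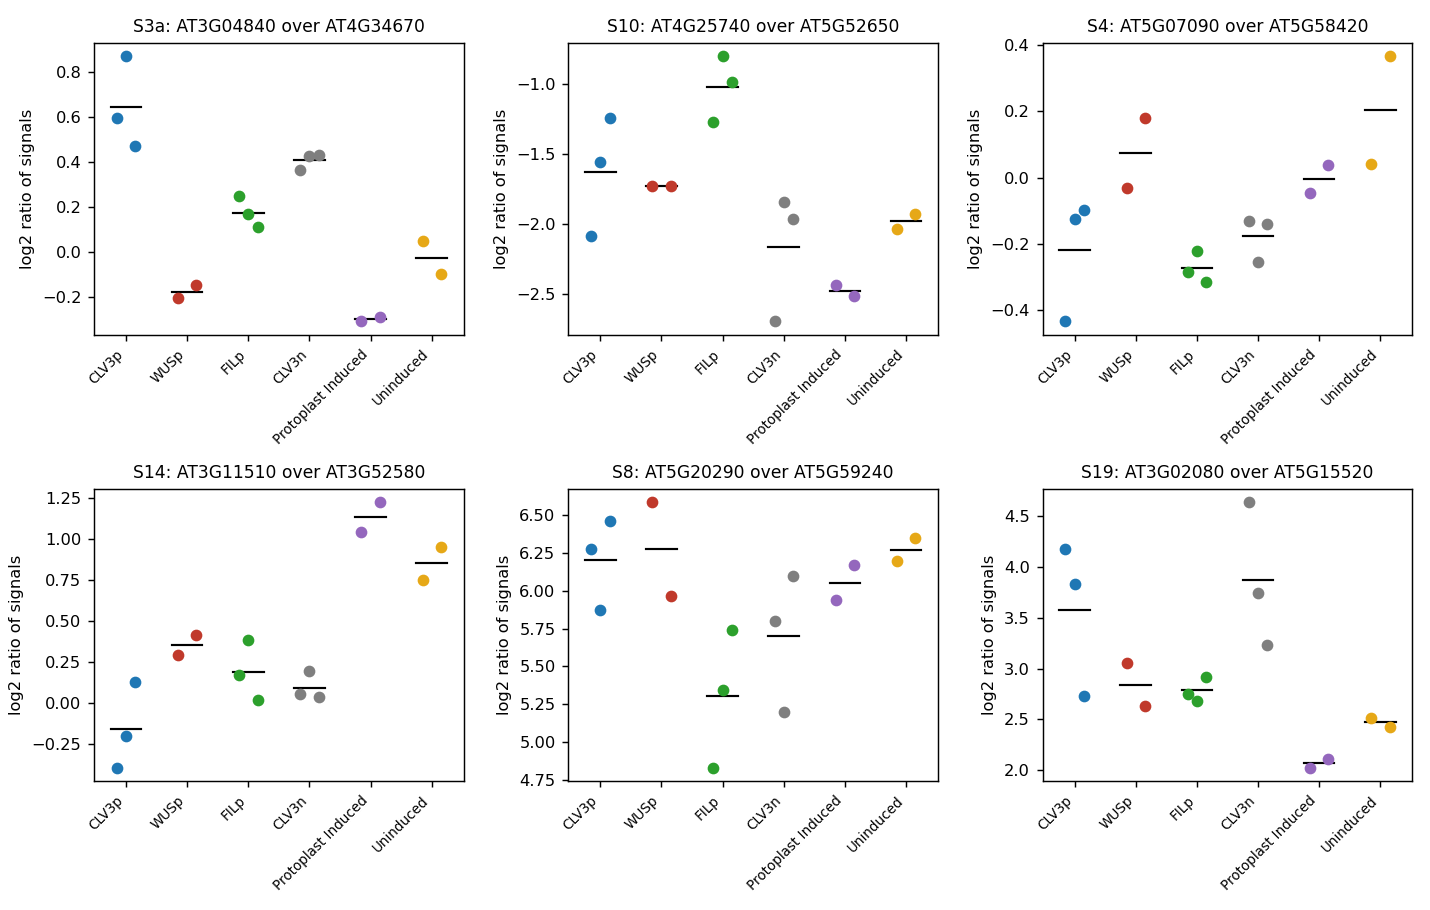
Log2 ratio of the signals of 2 genes for the same small-subunit protein on each array, for the 6 pairs with the smallest permutation p-values, with the group mean as a bar. The S3a ratio separates CLV3p, WUSp, FILp and CLV3n without overlap, and in the other 5 panels populations overlap.

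No other pair passed, and the next was the S10 pair. AT4G25740 over AT5G52650 had log2 ratios of -2.08, -1.56 and -1.24 in CLV3p, -1.73 and -1.73 in WUSp, -1.27, -0.80 and -0.99 in FILp, and -2.69, -1.84 and -1.96 in CLV3n (exact permutation p = 0.0251, adjusted p = 0.251). The ratio was highest in FILp and lowest in CLV3n on average, with CLV3p overlapping both. AT4G25740 itself had 2849, 4257 and 3451 in CLV3p, 2426 and 2938 in WUSp, 3516, 3999 and 3931 in FILp, and 2815, 4484 and 4541 in CLV3n, and no sorted comparison of it was called. The S10 ratio and the S4 ratio passed when CLV3p 1 was left out (adjusted p = 0.0423 and 0.0286), which gave 3 called pairs, and 2 pairs were called without CLV3n 2 and with the batch as a block.

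The S4 pair AT5G07090 over AT5G58420 had log2 ratios of -0.43, -0.12 and -0.10 in CLV3p, -0.03 and 0.18 in WUSp, -0.28, -0.22 and -0.32 in FILp, and -0.13, -0.25 and -0.14 in CLV3n (exact permutation p = 0.0596, adjusted p = 0.339). WUSp was the highest population, and the others overlapped. AT5G07090 had 5295, 5750 and 6381 in CLV3p, 5534 and 6745 in WUSp, 7453, 6179 and 7616 in FILp, and 6409, 6273 and 8105 in CLV3n, with WUSp inside the range of the rest. AT5G58420 had 7149, 6269 and 6822 in CLV3p, 5653 and 5952 in WUSp, 9077, 7200 and 9481 in FILp, and 7024, 7478 and 8933 in CLV3n, with WUSp below the rest.

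The S14 pair AT3G11510 over AT3G52580 averaged -0.15 ± 0.26 in CLV3p, 0.36 ± 0.09 in WUSp, 0.19 ± 0.18 in FILp and 0.10 ± 0.09 in CLV3n (SD of the log2 ratio). The S8 pair AT5G20290 over AT5G59240 averaged 6.20 ± 0.30 in CLV3p, 6.27 ± 0.44 in WUSp, 5.31 ± 0.45 in FILp and 5.70 ± 0.46 in CLV3n. The S19 pair AT3G02080 over AT5G15520 averaged 3.58 ± 0.75 in CLV3p, 2.84 ± 0.30 in WUSp, 2.79 ± 0.12 in FILp and 3.87 ± 0.71 in CLV3n. All 3 had adjusted p = 0.339 by the exact permutation test. For the S19 pair the lowest ratios of CLV3p and CLV3n, 2.73 and 3.23, were those of CLV3p 3 and CLV3n 3, in the low bioC batch with FILp. For AT3G02080, signals were 10322, 10010 and 7961 in CLV3p, 6388 and 6311 in WUSp, 9040, 8402 and 10192 in FILp, and 12550, 9891 and 10924 in CLV3n, with WUSp below all others. The 14 further pairs had adjusted p-values from 0.339 to 0.992, and the S7 pair AT1G48830 over AT5G16130 varied least, with mean log2 ratios of 0.03 in CLV3p, -0.04 in WUSp, 0.02 in FILp and 0.02 in CLV3n.

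Paralogue ratios were also compared between Protoplast Induced and Uninduced, where 2 arrays against 2 allow no permutation p below the threshold and none was computed. The 2 pairs given here each hold a gene already called lower above. The S12 log2 ratio AT1G15930 over AT2G32060 was 0.00 and -0.02 in Protoplast Induced and 0.58 and 0.59 in Uninduced, since AT2G32060 had 7822 and 8253 in Protoplast Induced and 7769 and 7561 in Uninduced. The S10 ratio AT4G25740 over AT5G52650 was -2.43 and -2.51 in Protoplast Induced and -2.03 and -1.93 in Uninduced. In neither pair did the groups overlap, but most of the other measured pairs did not overlap either, so that order does not set these pairs apart. Nor does the size of the shift. The S19 ratio AT5G15520 over AT5G61170, with a gene called higher, was -1.13 and -1.23 in Protoplast Induced. In Uninduced it was -1.63 and -1.95.

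The genes of the large (60S) subunit, of which 83 had a probe set of their own and 77 were tested in sorted cells, were called in the same directions in the comparisons that hold WUSp. In WUSp against CLV3n 42 of 77 were lower and none higher (median -0.61), where 10.8% of all probe sets were lower. In WUSp against FILp 29 were lower and none higher (median -0.55), where 7.69% of all probe sets were lower. In CLV3p against WUSp 23 were higher and none lower (median 0.45), where 11.7% of all probe sets were higher. With arrays centred on their medians these 3 counts were 26, 23 and 24. Both WUSp arrays lay below the 9 others for 41 of the 77, against 10.8% of all probe sets. In CLV3p against FILp 2 of 77 were higher and 11 lower, where 10.5% and 12.2% of all probe sets were. In Protoplast Induced against Uninduced 6 of 75 were higher and 14 lower, where 10.5% and 11.4% of all probe sets were. With arrays centred the counts were 3 and 5 in CLV3p against FILp, and 2 and 19 in Protoplast Induced against Uninduced. Shares of all probe sets were not computed with centring. AT3G55170 was lower in WUSp than in CLV3n by -1.62 ± 0.26. AT2G40010 differed from that pattern, since it was lower than in CLV3n both in WUSp (-4.42 ± 0.67) and in FILp (-5.96 ± 0.60). In Protoplast Induced AT3G22230 was higher by 0.86 ± 0.18.

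Few genes that act on ribosomes were measured. Of 5 measured ribosome assembly factors, AT5G38720 was lower in WUSp than in CLV3n (-0.67 ± 0.19) and higher in CLV3p than in WUSp (0.99 ± 0.19) and than in FILp (0.59 ± 0.17), and no other was called. Of the TOR pathway, which couples nutrients to ribosome synthesis, the TOR kinase's binding partners RAPTOR1 and RAPTOR2 were measured. RAPTOR2 was higher in WUSp than in CLV3n (0.70 ± 0.23) and in FILp than in CLV3n (0.80 ± 0.20), and RAPTOR1 was lower in Protoplast Induced than in Uninduced (-0.68 ± 0.15). The initiation factor gene EIF4A-2 was called only in Protoplast Induced against Uninduced, where it was lower (-0.49 ± 0.10). Of 2 nuclear genes for plastid small-subunit proteins, none was called between sorted populations, and AT3G13120 was lower in Protoplast Induced (-0.39 ± 0.13).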

How the data were processed

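Total RNA from 15 samples was labelled with biotin and hybridised to Affymetrix arrays, per the labels. The authors deposited an intensity per probe set that is not on a log scale, the signal of MAS5, which the submitters' processing notes name without a version. Because the mean between the 2nd and 98th percentiles was 499.8 on each array, scaling had already been done. Precision is limited by how few arrays there were. Build and chip annotation versions are not given in the sources used here.

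Log2 signals were analysed as they stood, leaving out 64 controls. Testing required a signal over the 40th percentile of the array in 2 or more arrays of the fit, which all 35 genes met. The two-sided test was limma's (version 3.58.1 under R 4.3.3; lmFit, then eBayes with its trend and robust options), with p-values adjusted by Benjamini-Hochberg over 15052 probe sets (11 sorted arrays) or 13911 (4 arrays of the protoplast pair) and a threshold of 0.05. "Called" means past it. Both tests were tested on simulated data. The members, the lists and the rules were chosen with earlier results of these data known. Values on every array are given for the 4 genes with the smallest F test p, up to 4 called genes per comparison with the largest difference, and the genes of 6 paralogue pairs, and other genes were added where a sentence needed them. Same-numbered arrays correlated from -0.12 to 0.35 in their deviations from group means, with 2 of 15 pairs over 0.1. Those were CLV3n 1 with CLV3p 1 (0.346) and CLV3n 3 with CLV3p 3 (0.347), while CLV3n 2 with CLV3p 2 had 0.04. CLV3n 1 with CLV3p 3 had -0.31, and CLV3n 3 with CLV3p 1 had -0.34. Replicate numbers were not taken as pairs in the main fits. The labels do not say whether CLV3p and CLV3n arrays came in pairs. Alternatives were other filters, a floor, centring, quantile normalization, plain eBayes, other sets of arrays in the fit, the bioC batch or replicate number as a block, single batches, and leaving out each array.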

Additional observations from a re-analysis of the deposited data

How the results depend on the processing

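A set of genes and paralogue pairs picked by rule, not every gene named above, gave 515 recomputed values. Of these 465 stayed on their side of the threshold, 48 lost a call, 2 gained one and no value of a gene was marked as reversed. For pairs only the side of the threshold was compared, not the direction. Outside that set direction could turn, as for AT5G15520 in WUSp against FILp with the batch as a block (0.33). Centring arrays on their medians turned the median of the 35 genes to 0.019 in CLV3p against CLV3n, and gave 0.048 in FILp against CLV3n, -0.46 in WUSp against CLV3n and -0.10 in Protoplast Induced against Uninduced, with 14 genes called by the F test, 14 in WUSp against CLV3n, 11 in WUSp against FILp and 3 in Protoplast Induced against Uninduced. Quantile normalization gave medians of 0.40 in CLV3p against WUSp, -0.46 in WUSp against CLV3n, -0.43 in WUSp against FILp and 0.062 in Protoplast Induced against Uninduced, with 13 calls in WUSp against CLV3n and 11 in WUSp against FILp. Plain eBayes left 7 calls in CLV3p against WUSp, 6 in WUSp against FILp, 12 by the F test and 1 in Protoplast Induced against Uninduced. A single fit of 15 arrays gave 5 calls in CLV3p against CLV3n, 6 in CLV3p against FILp and 1 in Protoplast Induced against Uninduced, and only the groups compared gave 29 in WUSp against FILp. With no filter 3 genes were called in Protoplast Induced against Uninduced, and a filter at the 60th percentile or a floor at the 20th gave 2 in CLV3p against CLV3n. The bioC batch as a block gave 3 calls in CLV3p against CLV3n and 2 paralogue pairs. The low batch alone, where CLV3p 3 is the only CLV3p array, gave a median of -0.15 in CLV3p against FILp. The high batch alone gave 0 calls in CLV3p against CLV3n (limma) and 12 in CLV3p against WUSp. Without CLV3n 1 and CLV3p 1, whose actin 3'/5' ratios were highest and which were chosen after seeing the data, 2 genes were called in CLV3p against CLV3n. The replicate number as a block gave 5 calls in CLV3p against FILp, 2 in FILp against CLV3n and no paralogue pair, the S3a pair having p = 0.00521 (exact permutation within the block, adjusted p = 0.104). Leaving out each array in turn gave 0 to 3 calls in CLV3p against CLV3n, 1 to 3 in CLV3p against FILp, 1 to 15 in CLV3p against WUSp, 1 to 2 in FILp against CLV3n, 1 to 9 in Protoplast Induced against Uninduced, 7 to 19 in WUSp against CLV3n, 2 to 16 in WUSp against FILp, 7 to 24 by the F test and 1 to 3 pairs. The medians then ran from -0.19 to -0.13 in CLV3p against CLV3n, -0.16 to -0.048 in CLV3p against FILp, 0.46 to 0.58 in CLV3p against WUSp, -0.12 to -0.02 in FILp against CLV3n, -0.04 to -0.01 in Protoplast Induced against Uninduced, -0.67 to -0.57 in WUSp against CLV3n and -0.60 to -0.48 in WUSp against FILp. With fewer arrays such counts fell in some fits and rose in others, and the cause was not tested. Shares of all probe sets called were computed in the main fit only, so no count under another setting has its share beside it. The mean over several probe sets was not run, because no gene had more than 1.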
